A study of Mus musculus with 10 samples.

Results

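The genes described here encode core subunits of the Polycomb repressive complexes. They are Ezh1, Ezh2, Eed, Suz12, Bmi1, Rnf2, Cbx2, Cbx7 and Cbx8, chosen by name, and all 9 were found among the 47729 genes measured. They were followed in forelimb bud RNA of 10 mouse embryos, 5 knockouts and 5 controls, collected at embryonic stages labelled E11.5-E12. Every knockout embryo carried Prx1Cre, a Cre recombinase driven by a Prrx1 enhancer that is active in limb bud mesenchyme, with both Cxxc1 alleles floxed (Cxxc1fl_fl). Control 1 carried Prx1Cre with 1 floxed and 1 wild-type allele. Controls 2 and 4 had no Cre and 1 floxed allele, control 3 had no Cre and 2 floxed alleles, and control 5 had 2 floxed alleles and a Cre status marked as uncertain. Embryos of both groups had 49 to 51 somites and shared 4 litters, with 2 of each group in litter A and 1 of each in litters B, C and D. Ectoderm, blood, endothelium and migrating muscle precursors lie outside the reach of this Cre and remain in the bud.

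Polycomb complexes keep developmental genes silent. PRC2, built on EZH1 or EZH2 with EED and SUZ12, methylates histone H3. PRC1, built on RING1 or RNF2 with a PCGF protein such as BMI1, adds ubiquitin to histone H2A. Canonical PRC1 also holds a CBX protein that reads the PRC2 mark. CXXC1, whose gene is floxed in the knockout, binds unmethylated CpG and serves the SET1 enzymes, which place a mark of active promoters. In the limb, Polycomb complexes are known for keeping the Hox clusters and genes of other lineages shut. The comparison sets RNA levels of the Polycomb machinery in knockout buds against those in control buds.

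The labels were checked first with Cxxc1 itself. It stood at 75.2 ± 1.23 CPM in knockouts and 96.7 ± 6.88 CPM in controls (SD, n = 5 each), where CPM is the usual depth-scaled count, here on TMM-scaled library sizes. The groups did not overlap, and the log2 fold change, knockout over control throughout, was -0.36 (SE 0.05, adjusted p = 0.000144). Reads from deleted and retained exons were not separated in this value. Xist, which coats the inactive X in female cells, reached 2290 CPM in knockout 3 and 4114 CPM in control 1 and was at 0.360 to 5.48 CPM in the other 8 libraries. Totals ran from 33274911 to 49880815 counts per library, and the 9 genes held between 145 and 12688 counts in any library. Limb mesenchyme markers summed to 1191 to 1310 CPM in knockouts and 1961 to 2038 CPM in controls, with the markers detected in every library. Of these 11 markers 4 were lower and 0 higher, so that 36.4% were called, all of them lower. Among all 20562 genes tested, 17.1% were lower and 18.1% higher (35.2% in either direction). Of the marker lists of other cells, 14 of 15 macrophage genes were higher and Cd14 was lower. The macrophage list summed to 250.8 to 287.3 CPM in knockouts and 71.5 to 94.3 CPM in controls. Of 12 erythroid genes, 10 were higher and 0 lower (3740 to 7881 CPM summed in knockouts, 3011 to 3553 CPM in controls). Likewise 8 of 10 endothelial genes (341.6 to 396 CPM in knockouts, 274.7 to 320.5 CPM in controls), 8 of 12 ectoderm genes (605.3 to 734.3 CPM in knockouts, 339.9 to 563.2 CPM in controls) and 5 of 7 muscle precursor genes (146.4 to 264 CPM in knockouts, 141.1 to 171.4 CPM in controls) were higher. Of 6 neural crest markers, 1 was higher and 1 lower, 33.3% called and near the 35.2% of all genes. They summed to 18.0 to 24.6 CPM in knockouts and 17.7 to 21.4 CPM in controls. No marker of these lists was at 0 in all libraries. Their part in the values below was not tested, and in bulk tissue fewer cells of a type and less RNA per cell cannot be told apart.

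Among the core genes, Eed rose, Cbx8, Bmi1, Cbx2 and Ezh1 fell, and Ezh2, Suz12, Rnf2 and Cbx7 did not pass the test. The call of Ezh1 was marginal and was lost in 15 of 21 alternative settings. All shifts were small. The called values ran from a log2 fold change of -0.34 for Cbx8 to 0.39 for Eed, and 0 of the 9 genes moved by 0.5 or more on the log2 scale, which 22.8% of all genes tested did. In counts, 1 of 9 was higher and 4 were lower at an adjusted p under 0.05, against a background of 18.1% higher and 17.1% lower among 20562 genes (35.2% in either direction). Of all calls, 51.3% were higher here and 62.2% when scaled by library size alone, which moved the median of all genes to 0.05. The knockout and control libraries did not overlap for Eed, Cbx2 and Cbx8, 3 of 9 genes, where 25.3% of all genes did not overlap. The median log2 fold change was -0.06 over the 9 genes and -0.001 over all genes tested.

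**Figure D1:**
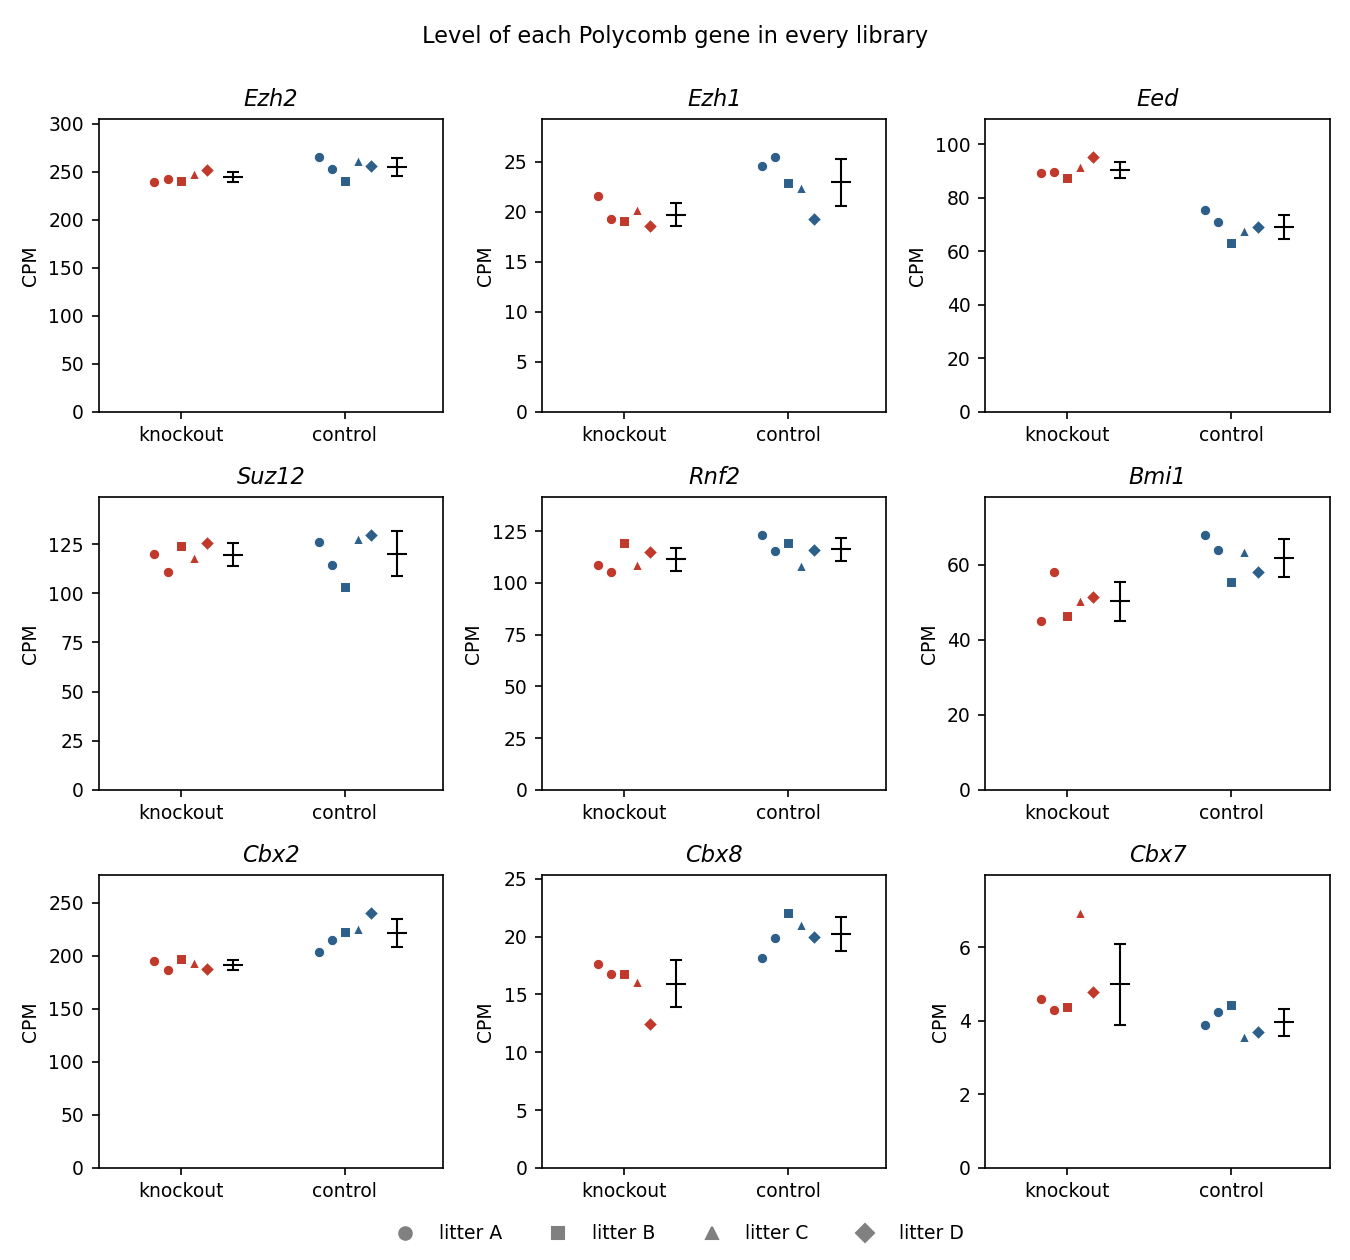
Level in CPM (vertical axes, from 0) of each of the 9 genes in the 5 knockout and 5 control libraries, with the litter as marker shape and the mean ± SD in black. The Eed points of the knockouts (87.4 to 95.3 CPM) lie above all controls (63.1 to 75.3 CPM), those of Cbx2 and Cbx8 lie below them, and the Suz12 and Rnf2 points intermingle.

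Promoter sequences are shown for Eed, which rose, for Bmi1 and Cbx8, which fell most, and for Ezh2 and Suz12, which had no call, because CXXC1 binds CpG. Each runs 5′ to 3′ over 300 bases, 250 before and 50 after the transcript start, from RefSeq on GRCm38.p6. Capitals mark each CG pair, which reads the same on both strands.
Eed (chr7:89980927-89981226, minus strand): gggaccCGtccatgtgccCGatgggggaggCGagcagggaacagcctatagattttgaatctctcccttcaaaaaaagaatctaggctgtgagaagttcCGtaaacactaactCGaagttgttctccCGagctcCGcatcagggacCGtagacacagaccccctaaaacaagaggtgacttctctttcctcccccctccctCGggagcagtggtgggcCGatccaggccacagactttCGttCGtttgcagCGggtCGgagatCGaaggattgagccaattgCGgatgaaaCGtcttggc
Bmi1 (chr2:18676768-18677067, plus strand): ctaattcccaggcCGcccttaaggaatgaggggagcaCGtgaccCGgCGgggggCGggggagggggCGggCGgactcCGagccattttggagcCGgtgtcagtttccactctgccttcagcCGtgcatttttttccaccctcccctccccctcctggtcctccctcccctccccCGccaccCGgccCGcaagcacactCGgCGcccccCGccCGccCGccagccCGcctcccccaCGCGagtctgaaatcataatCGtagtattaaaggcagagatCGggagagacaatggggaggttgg
Cbx8 (chr11:119040864-119041163, minus strand): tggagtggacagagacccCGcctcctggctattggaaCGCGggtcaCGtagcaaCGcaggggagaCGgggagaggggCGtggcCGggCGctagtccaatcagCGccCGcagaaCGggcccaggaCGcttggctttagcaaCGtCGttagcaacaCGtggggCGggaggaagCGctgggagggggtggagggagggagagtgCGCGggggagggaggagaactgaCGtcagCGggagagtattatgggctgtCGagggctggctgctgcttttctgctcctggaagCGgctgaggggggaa
Ezh2 (chr6:47594981-47595280, minus strand): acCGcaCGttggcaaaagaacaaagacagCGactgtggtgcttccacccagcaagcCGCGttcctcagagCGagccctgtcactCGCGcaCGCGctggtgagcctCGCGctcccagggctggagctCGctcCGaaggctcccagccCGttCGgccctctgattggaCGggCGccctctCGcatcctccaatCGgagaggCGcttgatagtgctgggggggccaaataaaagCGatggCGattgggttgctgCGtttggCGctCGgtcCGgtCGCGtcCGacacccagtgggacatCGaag
Suz12 (chr11:79992856-79993155, plus strand): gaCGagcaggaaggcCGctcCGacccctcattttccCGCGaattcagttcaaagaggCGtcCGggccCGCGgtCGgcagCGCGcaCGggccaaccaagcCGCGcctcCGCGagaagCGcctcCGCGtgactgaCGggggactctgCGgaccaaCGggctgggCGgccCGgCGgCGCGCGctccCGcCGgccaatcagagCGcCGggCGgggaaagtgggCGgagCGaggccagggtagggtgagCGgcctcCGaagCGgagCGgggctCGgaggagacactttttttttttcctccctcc
Of the 9 genes, 8 had an entry, and the missing one is Cbx2. The Eed promoter held 17 CG pairs, the fewest of the 8, and the Suz12 promoter held 41, the most. Between them lay Bmi1 and Ezh1 with 23 each, Cbx8 with 24, Rnf2 with 30, Ezh2 with 31 and Cbx7 with 33. At least 1 CG pair occurred in 94.6% of the 32851 promoters of this length, whose median was 7, and the median was 18 in the 16389 promoters of genes tested here. At least 17 CG pairs were found in 54.9% of the promoters of tested genes, and at least 41 in 5.86%. The 4 called genes with an entry held 17 to 24 CG pairs and the 4 without a call held 30 to 41. This is a description of 8 promoters with no test, in which Eed, which rose, and the fallen genes lay on the same side. The split counts Ezh1 as called, although that call was lost in 15 of 21 alternative settings. It also lacks Cbx2, whose call held in all 21.

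Within PRC2, the subunits did not move together. Ezh2, the methyltransferase of dividing cells (ENSMUSG00000029687, chromosome 6, 47530139 to 47595341, minus strand, GRCm38), had 239.6, 242.2, 240.2, 247.2 and 252.0 CPM in knockouts 1 to 5, against 265.4, 252.5, 240.6, 261.0 and 255.8 CPM in controls 1 to 5. The groups overlapped, with control 3 down among the knockouts. The difference on the log2 scale was -0.06 (SE 0.04, 95% interval -0.15 to 0.02, adjusted p = 0.236), and its value was negative in all 4 litters, from -0.10 in litter A to -0.002 in litter B. Beside it, 13 of 18 G2/M genes were lower and 0 higher, 72.2% called against 35.2% of all genes (4028 to 4243 CPM summed in knockouts, 4749 to 5110 CPM in controls). Of 20 G1/S genes 3 were lower and 1 higher, 20% called and below the share of all genes (3778 to 4168 CPM in knockouts, 3950 to 4462 CPM in controls). The part of the G2/M genes in the Ezh2 values was not tested.

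Ezh1, the paralog that is known for prevailing in cells that do not divide (ENSMUSG00000006920, chromosome 11, 101191115 to 101226463, minus strand), had 21.6, 19.2, 19.0, 20.1 and 18.6 CPM in the knockouts. The controls had 24.6, 25.5, 22.9, 22.4 and 19.3 CPM. Control 5 lay within the knockout range, and the other controls lay above it. On the log2 scale the change was -0.22 (SE 0.08, adjusted p = 0.048), from -0.29 in litter A to -0.05 in litter D. This call was marginal. It was lost in 15 of 21 alternative settings, among them leaving out any of knockouts 2 to 5 or controls 1 to 4, where the adjusted p ran from 0.0629 to 0.119, and leaving out knockout 3 and control 1, with their high Xist (-0.18, adjusted p = 0.175).

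Eed, the subunit that binds the PRC2 mark and stimulates the enzyme (ENSMUSG00000030619, chromosome 7, 89954654 to 89980983, minus strand), was the core gene that rose. The knockouts held 89.1, 89.5, 87.4, 91.4 and 95.3 CPM, against 75.3, 70.8, 63.1, 67.6 and 69.1 CPM in the controls. Every knockout was above every control. The means were 90.5 ± 3.01 CPM in knockouts and 69.2 ± 4.46 CPM in controls (SD, n = 5 each). This is a log2 difference of 0.39 (SE 0.05, adjusted p = 9.11e-05). The exact two-sided permutation p was 0.00794, the smallest that 5 against 5 can give. Within litters the value was 0.29 in litter A, 0.47 in B, 0.43 in C and 0.46 in D. The call held in all 21 alternative settings (0.36 to 0.45). E230029C05Rik, on the opposite strand, covers 6.8% of the exon bases of Eed, and counts without strand cannot separate them. It was itself at 1.88 ± 0.436 CPM in knockouts and 1.17 ± 0.185 CPM in controls, far below Eed.

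Suz12, which holds the complex together (ENSMUSG00000017548, chromosome 11, 79993106 to 80034123, plus strand), showed no difference that the test could detect. The knockouts had 120.1, 111.0, 123.9, 117.8 and 125.5 CPM, and the controls 126.1, 114.3, 103.0, 127.8 and 129.7 CPM. The knockout values lay inside the control range. Its log2 fold change was -0.01 (SE 0.06, 95% interval -0.15 to 0.13, adjusted p = 0.952), and its sign turned in 8 of 21 alternative settings.

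The RNA of Eed stood higher relative to that of its partners. On levels per kilobase (kb) of annotated exon, the ratio of Eed to Ezh2 was 0.646 ± 0.00900 in knockouts and 0.473 ± 0.0189 in controls (SD, n = 5 each). It ranged from 0.634 to 0.660 in knockouts and from 0.452 to 0.495 in controls. The ratio of Eed to Suz12 was 0.978 ± 0.0488 in knockouts and 0.747 ± 0.0570 in controls. Both ratios separated the groups with no overlap. The ratio of Ezh2 to Ezh1 overlapped between groups, at 13.8 ± 0.9749 in knockouts and 12.5 ± 1.45 in controls, and Ezh2 was 11.0 to 15.1 times as high as its paralog in every library.

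In PRC1, the catalytic subunit gene Rnf2, also called Ring1b (ENSMUSG00000026484, chromosome 1, 151458004 to 151500955, minus strand), had 108.5, 105.3, 119.0, 108.7 and 115.0 CPM in the knockouts. The controls had 123.1, 115.2, 119.2, 107.9 and 115.8 CPM. The groups overlapped widely, and control 4 was lower than 4 of the 5 knockouts. This was a log2 fold change of -0.06 (SE 0.05, 95% interval -0.17 to 0.04, adjusted p = 0.338). The intervals of Ezh2, Suz12 and Rnf2 leave room for shifts of up to 0.17 on the log2 scale in the direction that goes farthest.

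Bmi1, the PCGF subunit known for silencing the Ink4-Arf locus (ENSMUSG00000026739, chromosome 2, 18677018 to 18686629, plus strand), fell. The knockouts had 45.01, 58.1, 46.5, 50.3 and 51.5 CPM, against 68.0, 64.0, 55.4, 63.4 and 58.0 CPM in the controls. Knockout 2 was above controls 3 and 5, and the other knockouts lay below all controls. Its change was -0.30 on the log2 scale (SE 0.08, adjusted p = 0.00966), and it was negative in all 4 litters (-0.36 to -0.17). Without control 1 and knockout 3, the libraries with high Xist, the call was lost (-0.23, adjusted p = 0.0586).

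Of the chromobox genes, whose proteins bring canonical PRC1 to the PRC2 mark, Cbx2 and Cbx8 fell and Cbx7 did not pass the test. Cbx2 (ENSMUSG00000025577, chromosome 11, 119022962 to 119031270, plus strand) had 195.2, 186.4, 196.7, 193.4 and 187.4 CPM in the knockouts and 203.9, 214.9, 222.6, 225.6 and 240.5 CPM in the controls. Each knockout was below each control. It fell by 0.21 on the log2 scale (SE 0.05, adjusted p = 0.004; exact two-sided permutation p = 0.00794), from -0.36 in litter D to -0.13 in litter A.

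Cbx8 (ENSMUSG00000025578, chromosome 11, 119036305 to 119040969, minus strand) lies next to Cbx2 on chromosome 11. It had 17.6, 16.7, 16.8, 16.1 and 12.4 CPM in the knockouts and 18.1, 19.8, 22.0, 21.04 and 19.9 CPM in the controls. The groups did not overlap, although knockout 1 and control 1, both of litter A, nearly met. It fell by 0.34 on the log2 scale (SE 0.09, adjusted p = 0.0124; exact two-sided permutation p = 0.00794), from -0.68 in litter D to -0.15 in litter A. The calls of Cbx2 and Cbx8 held in all 21 alternative settings.

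Cbx7, which in mouse embryonic stem cells is the main CBX protein (ENSMUSG00000053411, chromosome 15, 79915807 to 79971119, minus strand), was scarce. The knockouts had 4.59, 4.30, 4.37, 6.93 and 4.795 CPM, and the controls 3.88, 4.23, 4.43, 3.55 and 3.69 CPM. Knockout 4 stood far above the rest, and knockouts 2 and 3 lay below control 3. The log2 fold change was 0.34 (SE 0.15, 95% interval 0.02 to 0.65) and did not pass over all genes (adjusted p = 0.0929). Without knockout 4 it was 0.19, and within litters it ran from -0.02 in litter B to 0.97 in litter C, the litter of knockout 4.

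**Figure D2:**
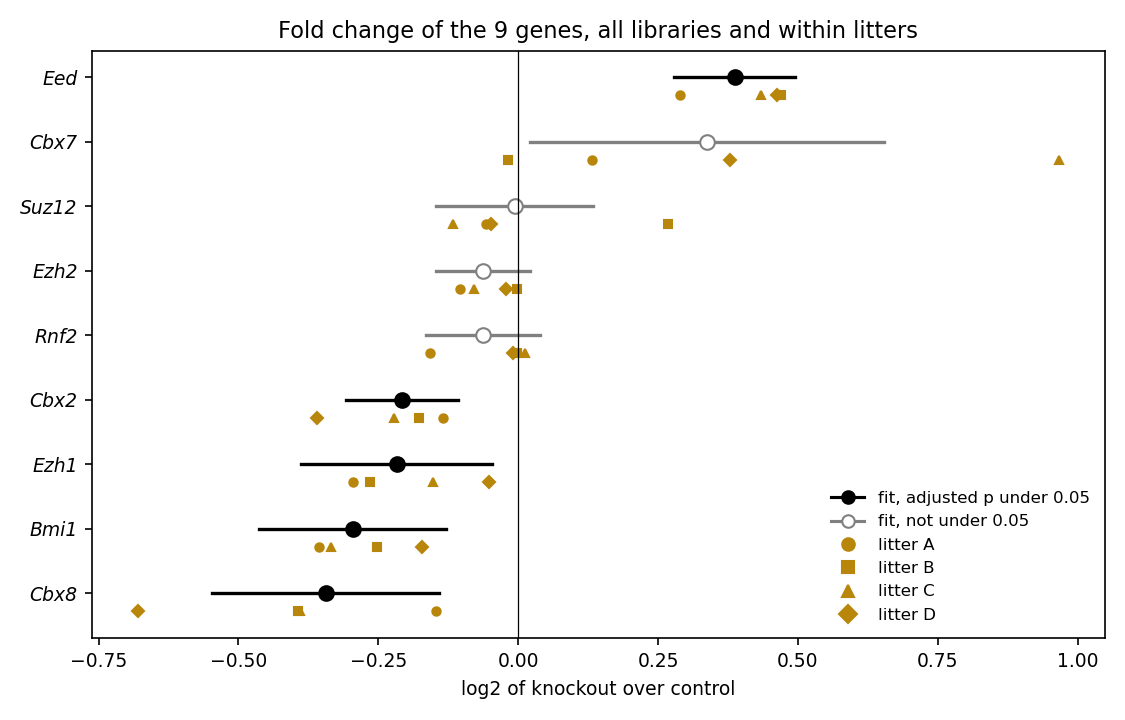
The log2 fold change of knockout over control (horizontal axis) for each of the 9 genes, with its 95% interval from the fit to all libraries as a bar and the values within litters A to D as small markers below it. Eed lies right of 0 in every litter, Cbx2, Cbx8, Bmi1 and Ezh1 lie left of 0 in every litter, and Cbx7 spreads from -0.02 to 0.97.

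Levels can be ranked between genes only per length. In CPM per kb of exon, Cbx2 led in both groups, with 45.1 ± 1.09 in knockouts and 52.0 ± 3.18 in controls. Ezh2 followed at 36.6 ± 0.787 in knockouts and 38.2 ± 1.4 in controls, and Rnf2 at 26.97 ± 1.34 in knockouts and 28.2 ± 1.37 in controls. Suz12 at 24.2 ± 1.2 in knockouts and 24.3 ± 2.29 in controls came next. Eed, at 23.7 ± 0.787 in knockouts and 18.1 ± 1.165 in controls, was level with Suz12 within the spread in knockouts and below it in controls. Bmi1 reached 12.6 ± 1.28 in knockouts and 15.5 ± 1.26 in controls. Cbx8 (4.33 ± 0.549 in knockouts, 5.50 ± 0.397 in controls) and Ezh1 (2.65 ± 0.158 in knockouts, 3.08 ± 0.321 in controls) were far lower. Cbx7 was lowest, at 0.770 ± 0.170 in knockouts and 0.609 ± 0.0568 in controls. All values are mean ± SD with n = 5 per group. Union exon length stands in for transcript length, and the order between genes depends on it. In CPM alone Ezh2 was above Cbx2, at 244.2 and 191.8 in knockouts and 255.1 and 221.5 in controls. The union held 6678 bases over 15 annotated transcripts for Ezh2, and 4257 bases over 2 for Cbx2. The sizes of the ratios between genes rest on the same lengths.

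**Figure D3:**
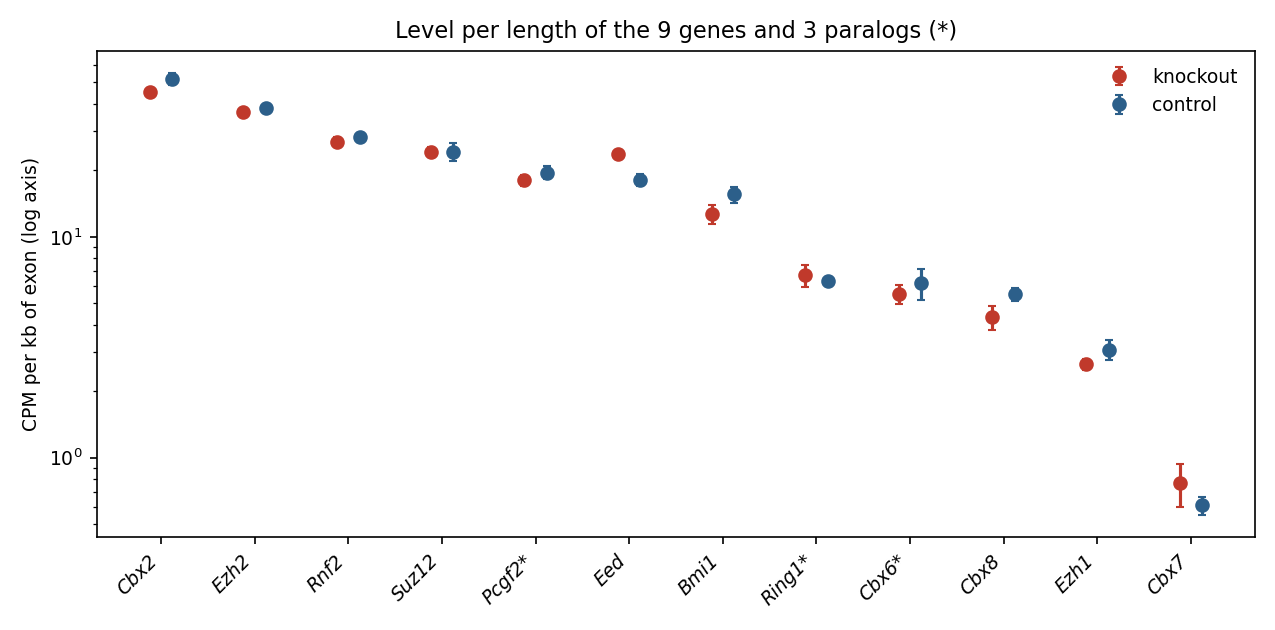
Level in CPM per kb of annotated exon (log axis) of the 9 genes and the paralogs Pcgf2, Ring1 and Cbx6 (starred), as mean ± SD of 5 knockout and 5 control libraries. Cbx2 is highest at 45.1 in knockouts and 52.0 in controls, and Cbx7 lowest at 0.770 in knockouts and 0.609 in controls.

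The make-up of these chromobox genes followed from their levels. Cbx2 gave 80.9 ± 0.954% of the summed level per kb of Cbx2, Cbx6, Cbx7 and Cbx8 in knockouts and 80.9 ± 1.63% in controls. Cbx6 gave 9.91 ± 0.936% in knockouts and 9.60 ± 1.31% in controls, and Cbx8 gave 7.77 ± 0.873% in knockouts and 8.55 ± 0.422% in controls. Of these 4 shares, the one of Cbx7 separated the groups, at 1.20 to 1.89% in knockouts and 0.829 to 1.04% in controls, and the other ones overlapped. Most of the sum is Cbx2, which fell, so the Cbx7 share is not independent of that fall. The CPM of Cbx7 itself overlapped between groups and did not pass the test. Against their paralogs, Rnf2 was 4.08 ± 0.633 times as high as Ring1 in knockouts and 4.48 ± 0.304 times in controls. Bmi1 stood at 0.706 ± 0.0925 of the level of Pcgf2 in knockouts and 0.801 ± 0.102 in controls, with overlapping ranges. Neither Ring1 (21.7 ± 2.50 CPM in knockouts, 20.4 ± 0.450 CPM in controls, adjusted p = 0.429) nor Pcgf2 (63.4 ± 3.80 CPM in knockouts, 68.8 ± 4.52 CPM in controls, adjusted p = 0.134) passed the test, and Cbx6 did not either (58.5 ± 5.88 CPM in knockouts, 65.6 ± 10.6 CPM in controls, adjusted p = 0.246).

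The wider machinery was read the same way. Of 48 other tested subunit and cofactor genes, 3 were higher, 4 lower and 41 not called. That is 14.6% called, beside 35.2% of all genes, and the median log2 fold change was -0.01. With litter as a block, 7 were lower. Among 9 tested cofactors of PRC2, Jarid2 and Rbbp4 fell and Aebp2 rose, 33.3% called and near the 35.2% of all genes. Jarid2, which helps PRC2 to its targets, had 97.1, 88.8, 111.8, 108.5 and 117.4 CPM in the knockouts, against 142.3, 145.2, 158.8, 140.9 and 170.9 CPM in the controls. The groups did not overlap. Its log2 fold change was -0.53 (SE 0.08, adjusted p = 0.000278), larger in size than that of any of the 9 core genes. Aebp2, found with Jarid2 in the same form of PRC2, moved the other way, with 107.8, 92.6, 109.6, 99.3 and 108.4 CPM in the knockouts and 82.2, 78.5, 79.5, 88.2 and 90.6 CPM in the controls (0.31, SE 0.06, adjusted p = 0.00171). Every knockout lay above every control. Rbbp4, a histone chaperone that PRC2 shares with other complexes, was at 576.2 ± 11.8 CPM in knockouts and 642.2 ± 28.7 CPM in controls (-0.16, SE 0.04, adjusted p = 0.0119), and it was not called when litter A was left out (adjusted p = 0.14) or when the controls were limited to controls 2, 3 and 4, which lack Cre (adjusted p = 0.0545). Genes on the opposite strand share 8.9% and 9.1% of the exon bases of Rbbp4.

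Of 24 other PRC1 genes, 4.2% were called, beside 35.2% of all genes, with a median of -0.02. In counts, 1 was lower, 0 were higher and 23 did not pass. The lower gene was Pcgf1, which directs a variant PRC1 to unmethylated CpG islands together with Kdm2b. It was at 10.9 ± 0.744 CPM in knockouts and 12.9 ± 0.474 CPM in controls (-0.25, SE 0.07, adjusted p = 0.0154), without overlap. The adjusted p of Pcgf1 was 0.124 when litter A was left out, 0.06 against Cre-free controls, 0.072 when the high-Xist libraries were left out and 0.0673 with library size only. Of 15 genes of the deubiquitinating complex PR-DUB, of PhoRC and of the histone demethylases that oppose PRC2, 2 were higher and 1 lower, with a median of 0.05. That is 20% called, below the 35.2% of all genes. Asxl3, a PR-DUB cofactor, fell to 40.3 ± 3.47 CPM in knockouts, against 58.7 ± 5.72 CPM in controls (-0.54, SE 0.08, adjusted p = 0.00021). Yy1, the DNA-binding protein of PhoRC, rose to 111.8 ± 4.71 CPM in knockouts, against 95.5 ± 4.68 CPM in controls (0.23, SE 0.05, adjusted p = 0.00203), and was not called without litter A (adjusted p = 0.0793). Foxk1, a forkhead factor that binds PR-DUB, was at 74.1 ± 3.35 CPM in knockouts and 64.0 ± 5.84 CPM in controls (0.21, SE 0.06, adjusted p = 0.0211), and its adjusted p was 0.0509 without knockout 1, 0.136 when litter A was left out, 0.0526 against Cre-free controls and 0.0673 when the high-Xist libraries were left out. The subset fits held fewer libraries. Over all genes, 4023 were called without litter A, 5781 against Cre-free controls and 5829 without the high-Xist libraries, beside 7245 over all libraries.

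The demethylase genes did not pass. Kdm6b was at 115.3 ± 6.89 CPM in knockouts and 123.5 ± 15.8 CPM in controls (adjusted p = 0.364). Kdm6a, an X-linked gene that escapes X inactivation, had 47.0, 48.2, 73.9, 45.9 and 47.7 CPM in the knockouts and 99.9, 53.3, 57.0, 53.4 and 53.0 CPM in the controls. Knockout 3 and control 1, the high values, were the libraries with high Xist. Over all libraries the log2 fold change was -0.27 (SE 0.19, adjusted p = 0.311), and without those libraries, 4 against 4, it was -0.20 (SE 0.05, adjusted p = 0.0128), with no overlap among the remaining values.

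**Figure D4:**
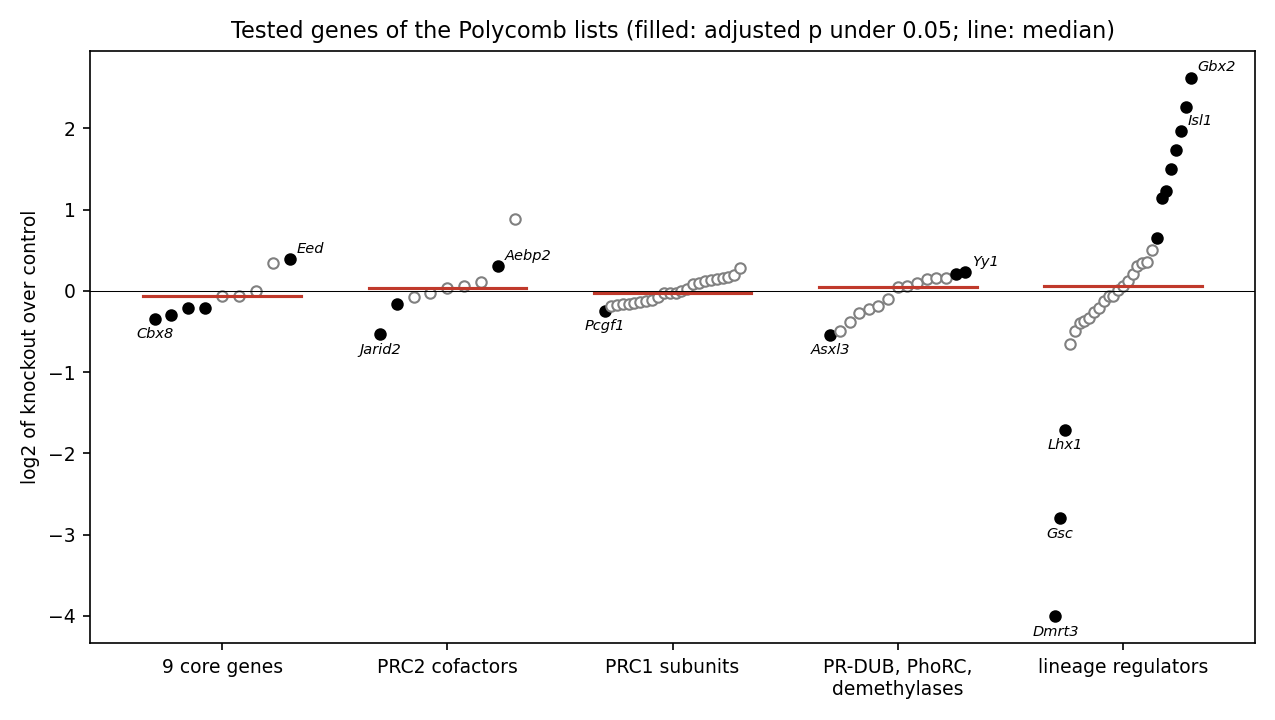
The log2 fold change of knockout over control (vertical axis) of every tested gene of the 9 core genes, 9 PRC2 cofactors, 24 other PRC1 genes, 15 PR-DUB, PhoRC and demethylase genes and 29 lineage regulators, filled where the adjusted p was under 0.05, with the median of each list as a line. The PRC2 cofactors spread from -0.53 to 0.88 and the other PRC1 genes from -0.25 to 0.28, and the lineage regulators spread from -4.00 for Dmrt3 to 2.62 for Gbx2.

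Genes that Polycomb is known to silence were read beside the machinery. Cdkn2a, which encodes p16 and Arf and is the classic gene freed when Bmi1 or Cbx7 is lost, stayed at the edge of detection. It held 2 to 7 counts per library in knockouts and 1 to 5 in controls, and did not pass the filter (0.72, SE 0.59, adjusted p = 0.463 with no filter). Its neighbour Cdkn2b had 1.05, 1.11, 1.03, 0.645 and 0.751 CPM in the knockouts, against 0.350, 0.557, 0.633, 0.689 and 0.427 CPM in the controls. Knockout 4 lay below control 4, and the other knockouts lay above all controls. It rose by 0.78 on the log2 scale (SE 0.24, adjusted p = 0.0241), and 5 libraries each removed the call when left out (knockouts 1, 2 and 3 and controls 1 and 5, at 0.66 to 0.74 with adjusted p from 0.0518 to 0.0609). The same happened when litter A was left out (0.45, adjusted p = 0.36), against Cre-free controls (0.54, adjusted p = 0.138) and when the high-Xist libraries were left out (0.62, adjusted p = 0.104).

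Of 64 regulators of other lineages that are known Polycomb targets in embryonic stem cells, 35 did not pass the filter on low counts and 40 averaged under 0.5 CPM. Of the 29 tested, 8 were higher, 3 lower and 18 not called, so that 37.9% were called, close to the 35.2% of all genes, with a median of 0.06. Gbx2, a homeobox gene of the hindbrain border, had 1.02 to 1.45 CPM in knockouts (median 1.31) and 0.104 to 0.279 CPM in controls (median 0.241), a log2 fold change of 2.62 (SE 0.27, adjusted p = 1.89e-05). D130058E05Rik overlaps 43.5% of its exon bases from the opposite strand. Isl1, a LIM homeobox gene of motor neurons and hindlimb, had 4.61 to 9.26 CPM in knockouts and 1.39 to 2.72 CPM in controls (1.97, SE 0.22, adjusted p = 3.54e-05). It separated the groups without overlap, and neural crest markers stand with their values above.

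Lhx1 and Gsc fell instead. Lhx1, a LIM homeobox gene of dorsal limb axon guidance and kidney, had 0.188 to 0.573 CPM in knockouts and 0.605 to 1.53 CPM in controls (-1.71, SE 0.34, adjusted p = 0.00198), and was not called without litter A (-1.39, adjusted p = 0.0849). Gsc, a homeobox gene of the organizer that is also expressed in limb mesenchyme, had 0.0997 to 1.90 CPM in knockouts and 3.95 to 6.58 CPM in controls (-2.80, SE 0.57, adjusted p = 0.00229). Neither gene overlapped between groups. Both directions were seen among these targets.

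For each core gene, the 3 genes most like it from library to library within groups were listed. Likeness was the Pearson correlation of log2 CPM after removal of each group's mean over the 10 libraries, searched among 10977 genes of at least 5 CPM. It is given as a description, since the libraries share depth and composition. The genes listed are also the highest of many correlations over few libraries, so high values can arise by selection alone. How high they run by chance was not tested. For Ezh2 the nearest genes were Ilf2 (0.98), E2f5 (0.97) and Nt5c3 (0.97). For Eed they were Ranbp6 (0.98), Eri2 (0.97) and Zfp975 (0.95), and for Suz12 Farsb (0.98), Spcs2 (0.97) and Phax (0.97). For Cbx2 they were Mbd3 (0.97), Ppp2r5d (0.97) and the PRC1 gene Phc2 (0.96). Cbx8 was nearest Amigo3 (0.95), Ints1 (0.94) and Arhgef40 (0.94), Bmi1 nearest Unc13d (0.94), Cep57 (0.92) and Snhg6 (0.91), and Rnf2 nearest Ddx3x (0.94), Ttc21b (0.93) and Nfib (0.92). Ezh1 was nearest Prdm15 (0.91), Trps1 (0.89) and Tspyl2 (0.89), and Cbx7 nearest Txnl4b (0.90), Tspyl4 (0.89) and Gcnt1 (0.89).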

How the data were processed

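Total RNA of forelimb buds was sequenced. The authors deposited estimated counts per Ensembl gene, of which 0.06% were whole within 1e-06, so all were rounded. A second deposited table, named FPKM, held a signal, namely these counts divided by 1 factor per library (100.00% of values within 0.01), and served as an alternative. The submitters' processing notes name Salmon 0.8.2, R 3.4.1, the package DESeq2 1.16.1 and mm10, with no role. No source used here says whether reads were assigned by strand. Symbols, coordinates and exon lengths came from GENCODE release M21 (GRCm38), which gave 47224 of 47729 IDs a symbol.

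Genes past filterByExpr (minimum count 10, minimum total 15) entered edgeR 4.0.16 (R 4.3.3) with TMM scaling and its quasi-likelihood test, knockout over control, with no covariate. Benjamini-Hochberg adjustment ran over all 20562 genes tested, at 0.05. SE is the absolute log2 fold change over the root of the F statistic. Permutation tests were exact and two-sided, ignoring litters. The steps were tested on simulated data. Chi-square over degrees of freedom between libraries of a group was 17.52 to 49.61, above sampling noise, and all 10 were kept. Embryos are separate animals by their labels. A count of 0 allows 0.0601 to 0.0902 CPM at 3 counts, for counting error only.

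Litters in the labels pair the samples, and numbers 3, 4 and 5 share litters B, C and D. Correlations of same-numbered deviations from group means were -0.013, 0.155, -0.025, 0.042 and 0.200. Alternatives were DESeq2 1.42.0, other scalings, no filter, each library left out, litter or number as a block, subsets of libraries, somite stage and limma 3.58.1 on log2(value + 1).

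The 9 genes, the other lists and the tests were chosen with earlier results of these data known. Named genes were the 9, up to 5 genes per list of smallest adjusted p under 0.05 with a mean of at least 0.5 CPM, and the preset Cbx6, Pcgf2, Ring1, Cdkn2a, Cdkn2b, Kdm6a and Kdm6b. Likeness took the 3 nearest genes. Some genes of the lists are counted in them and not reported here by name.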

Additional observations from a re-analysis of the deposited data

Results flagged for a closer look

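Libraries that stood apart from the other 4 of their group, by a gap of over 71.0% of the group's range, were looked for in 54 groups of 5 libraries. Chance alone marks about 1 in 20 such groups. Cbx7 was at 6.93 CPM in knockout 4, with the other knockouts between 4.3 and 4.8 CPM. Kdm6a was at 73.9 CPM in knockout 3, beside 45.9 to 48.2 CPM in the other knockouts, and at 99.9 CPM in control 1, beside 53.0 to 57.0 CPM in the other controls. These are the libraries with high Xist. Cbx6 was at 84.2 CPM in control 3, with the other controls between 58.9 and 64.5 CPM. Asxl3 was at 46.2 CPM in knockout 5, still below all controls, with the other knockouts between 37.7 and 39.9 CPM.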

How the results depend on the processing

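Each of the 9 genes was refitted under 21 alternatives. Eed, Cbx2 and Cbx8 kept their calls and Ezh2, Rnf2 and Cbx7 their lack of one in all 21. Bmi1 lost its call without the libraries with high Xist (-0.23). Ezh1 lost it with RLE size factors (-0.22), library size only (-0.17), no filter (-0.22), without litter A (-0.16), without the libraries with high Xist (-0.18), with somite stage as a term (-0.20) and with limma on the second table (-0.21). Over leave-one-out fits, Ezh1 ran from -0.28 to -0.18. The uncalled Suz12 turned to 0.046 with library size only, 0.025 without litter A and 0.056 with controls without Cre only, and ran from -0.058 to 0.021 over leave-one-out fits. Of the 9 genes, 2 were lower without the libraries with high Xist. Of the 48 other subunit genes, 7 were higher with library size only, 1 was higher without litter A and 2 were lower with controls without Cre only. With a replicate block for litter 7 were lower, and the block changed no call among the 9 genes. Leaving out each library gave 2 to 4 higher and 4 to 6 lower. Over all genes, 2002 were higher and 2021 lower once litter A was left out, beside 3719 and 3526. With library size only, 4492 of all genes were higher. In either direction, 5781 were called with controls without Cre only and 7314 with litter as a block, beside 7245. Among the 17 other named genes with a test, 335 of 357 refits kept the direction and call, 20 lost a call, 1 gained one, and Kdm6a turned to 0.03 without litter A. The fit without litter A left out control 1 and kept knockout 3, the libraries with high Kdm6a and high Xist. The cause of these shifts was not tested. Low counts limit Cdkn2a (1 to 7 per library) and several lineage regulators.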

Other observations

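Further lineage regulators on the Polycomb target list were called, most of them at low levels, and they are named here after their values were seen. Sim1 had 0.773 to 3.80 CPM in knockouts and 0.409 to 1.46 CPM in controls (1.51 on the log2 scale, adjusted p = 0.03). Sox14 had 0.480 to 1.22 CPM in knockouts and 0.175 to 0.480 CPM in controls (1.23, adjusted p = 0.0145), from 2.42 in litter A to 0.25 in litter D. Evx1, a homeobox gene beside the HoxA cluster, stood at 16.1 to 23.7 CPM in knockouts and 10.1 to 17.3 CPM in controls (0.65, adjusted p = 0.00536), from 1.11 in litter A to 0.07 in litter C. The groups overlapped for Sim1, Sox14 and Evx1. Dmrt3 fell. It was at 0 in knockouts 1, 2 and 4 and at 0.0603 and 0.146 CPM in knockouts 3 and 5, against 0.501 to 1.02 CPM in controls (adjusted p = 0.000492).

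Eomes, a T-box regulator, did not pass the filter because 4 libraries held nearly all of its counts. It was at 0.121 to 0.209 CPM in the knockouts, at 5.21 to 6.40 CPM in controls 1, 2, 3 and 5, and at 0.167 CPM in control 4. With no filter on low counts, edgeR gave a log2 fold change of -4.78 (SE 0.66, adjusted p = 9.47e-05).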
